A study of Mus musculus with 28 samples.

Results

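The genes of glycolysis and of the response to low oxygen were followed in a mouse model of mammary cancer that spreads to the lung. They were chosen by name for what they do, as 37 genes in 4 groups: 16 genes of glucose uptake and the glycolytic steps, 4 of flux control and lactate export, 4 HIF subunits and prolyl hydroxylases, and 13 genes known to rise when oxygen is low. The arrays gave a value for 34 of the 37, of 18193 genes measured in all, with 13 of the 16 glycolytic genes among them. Gapdh had only array control probe sets of its own and is given apart from the counts, and Gpi1 and Eno1 were not analysed here.

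Glycolysis turns glucose into pyruvate, and lactate dehydrogenase turns pyruvate into lactate when little of it enters the mitochondria. In cells with enough oxygen, prolyl hydroxylases such as Egln1 and Egln3 mark the HIF alpha subunits, Hif1a and Epas1, for destruction, and in low oxygen the subunits persist and switch on genes for glucose transport, glycolysis, pH control and vessel growth. The subunits are regulated mainly as proteins, and solid tumors are known for regions of low oxygen.

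Whole tissue RNA was read on Affymetrix arrays from 9 lung metastases (LungMets), 11 primary tumors (PT), 3 normal lungs (NL) and 3 normal mammary glands (NMG). The tumors came from the mouse mammary carcinoma line JygMC(A), of which 50000 cells per gland were put into the 4th mammary gland of Balb/C nude mice, and NL and NMG came from healthy mice of the same strain. PT were taken at day 30 and LungMets at day 50, and the methods describe female mice and cells with a GFP and luciferase reporter. The site is subcutaneous in the labels and the fat pad in the methods, and the labels give no age. JygMC(A) cells grown as 3D spheres and as a monolayer gave 1 array each. Nude mice lack T cells, and all tumors came from 1 line. The labels do not tie samples to animals, and the methods describe 1 or 2 fragments per mouse, with fewer mice than there are PT or LungMets samples. Samples of a group would then in part share a mouse, which makes p-values too small. A p-value here reflects only how much the samples differ. In whole tissue, fewer cells of a type and less RNA per cell cannot be told apart.

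Array medians lay from 5.00 to 5.18 log2 units. The labels put the arrays on 4 dates: 4 LungMets, 4 PT and both cell line arrays on the first, 5 LungMets and 7 PT on the second, and NL and NMG each on a date of its own, so that tissue and date cannot be told apart for the normal tissues. Two-sided tests used limma over all 18193 genes, and a gene was called at an adjusted p under 0.05. LungMets replicate 9 and PT replicate 5 stood apart from their labels. LungMets replicate 9 correlated more with PT (r = 0.983) than with the other LungMets (r = 0.963), while PT replicate 5 correlated more with LungMets (r = 0.989) than with the other PT (r = 0.968). The mean of 11 lung epithelium markers was 6.70 on LungMets replicate 9 and 10.38 to 11.31 on the other LungMets. It was 10.77 on PT replicate 5, 5.21 to 7.15 on the other PT and 12.28 to 12.36 in NL. Whether the labels of these arrays were exchanged was not tested, groups follow the labels, and results that rest on the arrays are given with and without them.

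The primary tumors were first compared with the normal mammary gland. Car9 rose most, and Egln3, Pgk1 and Slc2a1 were 2.61 to 2.94 times as high in PT as in NMG, while Pfkfb3, Stc2 and Epas1 were lower. Of the 34 genes, 15 rose and 5 fell in PT, against 26.7% of all genes higher and 21.0% lower. The median difference was 0.52 log2 units over the 34 genes and 0.09 over all genes. The heat map of log2 differences shows each gene in this and the other tissue comparisons, which share groups with it.

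**Figure D1:**
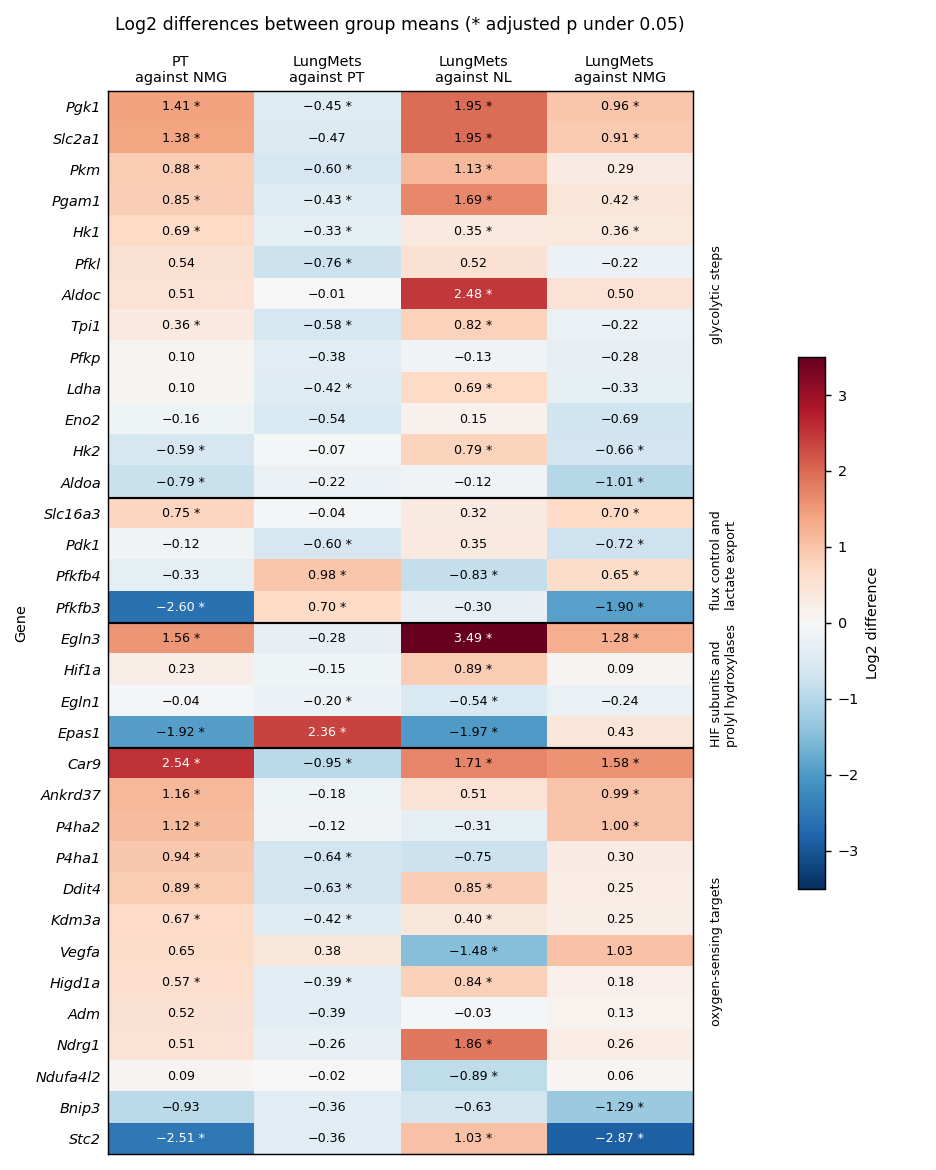
Log2 difference between group means (color, and number in each cell) for 34 genes (rows, in 4 groups by role) in 4 comparisons of tissues (columns), with an asterisk where the limma adjusted p was under 0.05. In LungMets against PT all 13 glycolytic genes have a negative value and 7 carry an asterisk, while Epas1 stands at 2.36.

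Among the glycolytic genes 6 rose and 2 fell in PT. Pgk1, which makes ATP in the lower part of the pathway, read 11.84 at the lowest, 12.34 at the median and 12.59 at the highest in PT, against 10.72, 10.92 and 11.14 in the 3 NMG. Here and below, groups of 3 are given sample by sample and larger ones by their lowest, median and highest. Every PT was above every NMG, with a difference of 1.41 ± 0.14 (SE; limma adjusted p = 9.78e-09). Slc2a1, the glucose transporter known as GLUT1, read 9.39, 9.78 and 10.65 in PT, against 8.39, 8.57 and 8.53 in NMG. Here too the groups did not overlap, and the difference was 1.38 ± 0.25 (limma adjusted p = 7.97e-05). Pkm (0.88), Pgam1 (0.85), Hk1 (0.69) and Tpi1 (0.36) also rose, and the call on Tpi1 was lost in 9 of 14 fits that left out 1 array. Ldha, the lactate dehydrogenase subunit, averaged 11.74 ± 0.23 in PT and 11.65 ± 0.18 in NMG (SD, n = 11 and 3), a difference of 0.10 (limma adjusted p = 0.602). Aldoa, an aldolase also abundant in muscle, fell by 0.79, and Hk2, the hexokinase known for muscle and fat, fell by 0.59. The Hk2 call was lost without NMG replicate 3, the highest of the 3 at 9.28.

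The control probe set of Gapdh, the step before Pgk1, averaged 12.26 in PT and 11.77 in NMG, a difference of 0.49 (limma adjusted p = 0.00376). It is the probe set also used to judge RNA quality, and it was left out of the counts.

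Of the flux control genes, Pfkfb3 fell and Slc16a3 rose in PT. Pfkfb3, which makes the activator of phosphofructokinase, read 6.53, 7.17 and 7.95 in PT, against 9.70, 9.35 and 10.13 in NMG. All PT were below all NMG, and it fell by 2.60 ± 0.28 (limma adjusted p = 4.81e-08). Slc16a3, the lactate exporter MCT4, averaged 5.68 ± 0.32 in PT and 4.93 ± 0.15 in NMG (SD, n = 11 and 3), a rise of 0.75. Pdk1, which holds pyruvate back from oxidation in the mitochondria, was not called at -0.12, and 3 of its 4 probe sets pointed the other way, up to 1.21.

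Of the alpha subunits Epas1 fell and Hif1a was not called, and the difference between them was not tested. Hif1a, the subunit found in most cells, averaged 10.60 ± 0.26 in PT and 10.37 ± 0.40 in NMG (SD, n = 11 and 3), and was not called (0.23; limma adjusted p = 0.274). Epas1, the subunit HIF-2 alpha that is high in endothelium and lung, read 8.37, 8.99 and 11.66 in PT, against 10.98, 10.89 and 11.35 in NMG. The only PT inside or above the NMG range was replicate 5, and Epas1 fell by 1.92 ± 0.58 (limma adjusted p = 0.0079), with a difference of -2.18 without that array and LungMets replicate 9. The mean of 12 endothelium markers ran from 5.04 to 8.14 in PT and from 7.71 to 7.95 in NMG, with 8 of the 12 lower in PT, and its part in the Epas1 values was not tested. Egln3, a prolyl hydroxylase that HIF itself raises, read 8.30, 8.61 and 10.13 in PT, against 7.22, 7.35 and 7.01 in NMG. The groups did not overlap and it rose by 1.56 ± 0.38 (limma adjusted p = 0.00138).

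Among the 13 oxygen targets 7 rose and 1 fell in PT. Car9, the membrane carbonic anhydrase used as a marker of hypoxic tumor tissue, read 5.77, 6.69 and 7.26 in PT, against 4.00, 4.03 and 3.95 in NMG. All 11 PT lay above all NMG and the difference was 2.54 ± 0.32 (limma adjusted p = 5.23e-07). The NMG values were not far above those of Y-linked genes, which female mice lack and whose mean ran from 2.86 to 3.23 on the tissue arrays, so the rise of Car9 may be understated. Ankrd37 (1.16), P4ha2 (1.12), P4ha1 (0.94), Ddit4 (0.89), Kdm3a (0.67) and Higd1a (0.57) rose as well. P4ha1 and P4ha2 are subunits of collagen prolyl hydroxylase, Ddit4 restrains mTOR, and Kdm3a removes histone methyl groups. Their calls held in each fit that left out 1 array, except P4ha1 without NMG replicate 1 (highest limma adjusted p = 0.0702) and P4ha2 without NMG replicate 1 or 2 (highest 0.0847).

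Stc2, a secreted glycoprotein, was the target that fell. It read 5.64, 6.39 and 7.004 in PT, against 7.54, 9.46 and 9.79 in NMG, with no overlap, and fell by 2.51 ± 0.30 (limma adjusted p = 1.92e-07). Vegfa, the main vessel growth factor, ranged more widely, from 6.13 to 9.59 in PT, against 7.30 to 7.83 in NMG, and was not called (0.65; limma adjusted p = 0.253). Bnip3, a mitophagy receptor, had a value of -0.93 that was not called, and was called without PT replicate 4, 7, 8 or 9.

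Markers of other cells moved with this comparison. All 10 measured adipocyte markers were lower in PT, with list means of 5.92 to 7.31 in PT and 11.30 to 11.89 in NMG, and all 6 B lymphocyte markers were lower, with list means of 4.14 to 7.13 in PT and 8.92 to 9.04 in NMG. All 9 proliferation genes were higher in PT, with list means of 9.54 to 9.995 in PT and 6.96 to 8.98 in NMG. Their part in the values of the glycolysis and hypoxia genes was not tested.

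**Figure D2:**
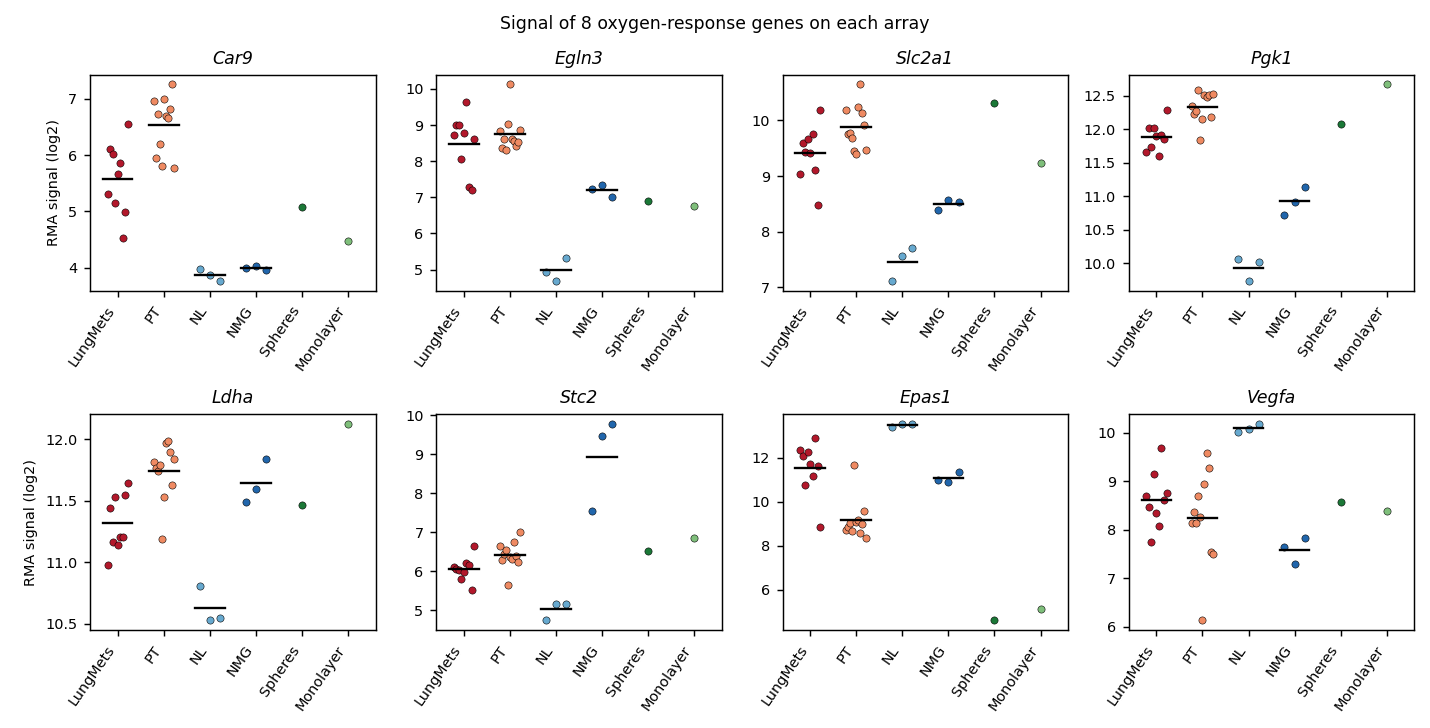
RMA signal (log2) of 8 genes on each of 28 arrays, by group, with a point for each array and a line at the mean of groups with over 1 array. Car9 lies between 5.77 and 7.26 in PT and near 4 in NL and NMG, and the LungMets array low for Epas1 (8.85) and the PT array high for it (11.66) are LungMets replicate 9 and PT replicate 5.

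The lung metastases were then compared with the primary tumors. LungMets were taken at day 50 and PT at day 30, so that site and day cannot be told apart. Most of the genes were lower in LungMets: 14 fell and 3 rose, where 6.13% of all genes fell and 9.03% rose. The median difference was -0.36 over the 34 genes and -0.02 over all genes. On all arrays, LungMets replicate 9 and PT replicate 5 included, the values of LungMets and PT overlapped for each of the 17 genes called. The share over all genes is not given, and overlaps were not counted without these arrays.

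All 13 glycolytic genes had a negative difference, from -0.76 to -0.01, and 7 of them fell. Tpi1, the isomerase that interconverts the products of aldolase, read 10.18, 10.63 and 10.84 in LungMets, against 10.74, 11.16 and 11.51 in PT, and fell by 0.58 ± 0.10 (limma adjusted p = 0.000328). Most LungMets lay below the lowest PT, with a short stretch of overlap. Pfkl, the liver type phosphofructokinase, fell by 0.76 ± 0.16 (limma adjusted p = 0.00223), Pkm by 0.60, Pgk1 by 0.45, Pgam1 by 0.43, Ldha by 0.42 and Hk1 by 0.33. Ldha read 10.98, 11.20 and 11.65 in LungMets, against 11.19, 11.79 and 11.98 in PT. Its lowest PT was replicate 5 and its highest LungMets was replicate 9, and without both the LungMets reached 11.55 and the PT began at 11.53. Gapdh gave -0.44 on its control probe set (limma adjusted p = 0.00193). Slc2a1 averaged 9.41 ± 0.49 in LungMets and 9.88 ± 0.39 in PT (SD, n = 9 and 11), and its difference of -0.47 was not called (limma adjusted p = 0.0722). It was called without LungMets replicate 9 and PT replicate 5 (-0.61; limma adjusted p = 0.0116) and without either alone. On all arrays it was called with the mean of its probe sets, with each array centred on its median and with array weights.

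Flux control genes split. Pfkfb4, a relative of Pfkfb3 that acts on the same activator, read 6.67, 7.22 and 7.80 in LungMets, against 5.73, 6.32 and 6.70 in PT. All LungMets but replicate 9 were above all PT, and it rose by 0.98 ± 0.15 (limma adjusted p = 0.00012). The highest PT was replicate 5. NL read 7.89 to 8.28 for Pfkfb4, above every LungMets. Lung and endothelium markers rose in LungMets too, and their part in the Pfkfb4 values was not tested. Pfkfb3 rose by 0.70 on the probe set used, and its other probe set gave -0.15. Pdk1 fell by 0.60.

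Epas1 rose most of the 34 genes. It read 8.85, 11.70 and 12.88 in LungMets, against 8.37, 8.99 and 11.66 in PT, a rise of 2.36 ± 0.40, or 5.12-fold (limma adjusted p = 0.000292). LungMets replicate 9 lay within the range of the other PT and PT replicate 5 within that of the other LungMets, and without both the rise was 2.94 (limma adjusted p = 3.25e-10). The lung and endothelium markers moved with it. Of 11 lung epithelium markers 10 rose, with list means of 6.70 to 11.31 in LungMets and 5.21 to 10.77 in PT, and of 12 endothelium markers 11 rose, with list means of 6.66 to 9.42 in LungMets and 5.04 to 8.14 in PT. Their part in the Epas1 values was not tested. Hif1a was not called (-0.15), nor was Egln3 (-0.28). Egln1, the main oxygen sensor among the hydroxylases, fell by 0.20, a call lost in 16 of 20 fits that left out 1 array.

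Of the oxygen targets 5 fell and none rose in LungMets. Car9 read 4.52, 5.66 and 6.56 in LungMets, against 5.77, 6.69 and 7.26 in PT, and fell by 0.95 ± 0.22 (limma adjusted p = 0.00455). The highest LungMets value was that of replicate 9 and the lowest that of replicate 7, and PT replicate 5 was among the lowest PT at 5.81. Without both arrays Car9 had a difference of -1.15 (limma adjusted p = 0.000271). P4ha1 fell by 0.64, Ddit4 by 0.63, Kdm3a by 0.42 and Higd1a, a mitochondrial protein that eases respiration in low oxygen, by 0.39. The P4ha1 call was lost in 13 of 20 fits that left out 1 array. Vegfa (0.38), Adm (-0.39), Bnip3 (-0.36), Ankrd37 (-0.18) and Ndrg1 (-0.26) were not called.

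Within the first label date 3 of the 34 genes rose and 10 fell, where 5.63% of all genes rose and 2.02% fell. Car9 was not called within this date (-0.81, limma adjusted p = 0.148), nor were Hk1, Egln1, Higd1a, Ddit4 and Kdm3a, all called over both dates. Within the second none was called (limma, with 15 at an unadjusted p under 0.05), nor was any of all genes (0.00% in each direction). All 17 genes called over both dates had the same direction in each date. They were called on these same arrays, so the shared direction is no separate check. Without LungMets replicate 9 and PT replicate 5, 2 of the 34 genes rose and 9 fell in the second date. Of all genes 4.15% rose and 1.79% fell in this setting, which was chosen after the data were seen. Among the genes called were Epas1 (2.88), Car9 (-1.44) and Ldha (-0.53), while Pfkfb3, Pdk1, Egln1, P4ha1, Ddit4 and Kdm3a were not called. The 3′ to 5′ signal difference of Gapdh, a sign of RNA quality, ran from 0.02 to 0.51 in LungMets and from -0.19 to 0.07 in PT, and its part in these values was not tested.

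The metastases were also set against normal lung, the tissue around them. The 34 genes gave 17 that rose and 5 that fell in LungMets, where 23.8% of all genes rose and 22.4% fell, with a median difference of 0.46 over the 34 and 0.05 over all genes. Of 13 glycolytic genes 9 rose and none fell. Egln3, Aldoc, Slc2a1, Pgk1 and Ndrg1 rose most, and Epas1 and Vegfa were lower than in NL. Pfkfb4 (-0.83) and Egln1 (-0.54) were also called lower. The other probe set of Egln1 gave 0.14, and its call was lost on the mean of its probe sets.

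Egln3 read 7.19, 8.73 and 9.63 in LungMets, against 4.94, 4.68 and 5.33 in NL, which is 11.3-fold (3.49 ± 0.39; limma adjusted p = 8.68e-08). Pgk1 read 11.60, 11.89 and 12.28 in LungMets, against 10.06, 9.73 and 10.01 in NL (1.95 ± 0.14; limma adjusted p = 1.43e-10). Neither gene had any overlap between LungMets and NL. Slc2a1 rose by 1.95, Pgam1 by 1.69, Pkm by 1.13, Tpi1 by 0.82, Hk2 by 0.79, Ldha by 0.69 and Hk1 by 0.35. The other probe set of Hk1 gave -0.24, and the Hk1 call was lost in 2 of 12 fits that left out 1 array. Aldoc, the aldolase known from brain, rose by 2.48 ± 0.78 with a wide range, 7.16 to 10.62 in LungMets and 6.23 to 6.61 in NL. Gapdh rose by 1.05 on its control probe set (limma adjusted p = 8.6e-07).

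Hif1a rose in this comparison, with 10.46 ± 0.19 in LungMets and 9.57 ± 0.37 in NL (SD, n = 9 and 3; 0.89, limma adjusted p = 2e-04). Epas1 read 13.40, 13.51 and 13.54 in NL, above every LungMets, and fell by 1.97 ± 0.59 (limma adjusted p = 0.00812). The endothelium list fell in the same direction, with 11 of 12 markers lower and list means of 6.66 to 9.42 in LungMets and 10.59 to 10.66 in NL, and its part was not tested.

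Of the oxygen targets 6 rose and 2 fell. Ndrg1, a stress gene raised by low oxygen, averaged 9.52 ± 0.38 in LungMets and 7.66 ± 0.21 in NL (SD, n = 9 and 3) and rose by 1.86 (limma adjusted p = 8.58e-07). Car9 averaged 5.57 in LungMets and 3.87 in NL, a rise of 1.71 ± 0.33 (limma adjusted p = 0.000147). Stc2 (1.03), Ddit4 (0.85), Higd1a (0.84) and Kdm3a (0.40) rose too. Kdm3a lost its call in 7 of 12 fits that left out 1 array and Stc2 in 1, and Higd1a fell on 2 of its 3 probe sets, the lowest at -0.45. Vegfa, which lung epithelium is known to make, read 7.75, 8.62 and 9.69 in LungMets, against 10.01, 10.08 and 10.19 in NL, and fell by 1.48 ± 0.47 (limma adjusted p = 0.0113). Ndufa4l2, which lowers the activity of respiratory complex I, fell by 0.89. Other lists moved here as well, and their part was not tested: all 9 proliferation genes were higher, with list means of 8.35 to 9.79 in LungMets and 5.72 to 6.25 in NL, and 9 of 10 adipocyte markers were lower, with list means of 5.80 to 7.65 in LungMets and 7.37 to 8.42 in NL.

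Against NMG, LungMets had 10 genes that rose and 6 that fell, where 23.1% of all genes rose and 17.9% fell. The comparison shares both of its groups with others above. Car9 (1.58), Egln3 (1.28), P4ha2 (1.00), Ankrd37 (0.99), Pgk1 (0.96) and Slc2a1 (0.91) rose by most. Slc16a3 (0.70), Pfkfb4 (0.65), Pgam1 (0.42) and Hk1 (0.36) rose less. Stc2 (-2.87), Pfkfb3 (-1.90), Bnip3 (-1.29), Aldoa (-1.01), Pdk1 (-0.72) and Hk2 (-0.66) fell. Pdk1 had this direction on 1 of its 4 probe sets, with the others up to 0.46, and was not called on their mean. Vegfa (1.03), Ldha (-0.33) and Hif1a (0.09) were not called, though Vegfa was called on the mean of its probe sets. Epas1 was not called (0.43; limma adjusted p = 0.583), but was called without LungMets replicate 9 and PT replicate 5 (0.76; limma adjusted p = 0.0458). Ldha was called without these 2 arrays as well (-0.37, limma adjusted p = 0.0165). Of these calls, P4ha2 was lost in 6 of 12 fits that left out 1 array, Hk1 in 3, Pgam1 in 2, and Hk2, Pfkfb4, Egln3 and Bnip3 in 1 each, every one of the last group without NMG replicate 2 or 3. All 10 adipocyte markers were lower, with list means of 5.80 to 7.65 in LungMets and 11.30 to 11.89 in NMG, and all 6 B lymphocyte markers were lower, with list means of 4.39 to 7.14 in LungMets and 8.92 to 9.04 in NMG. Of 11 lung epithelium markers 9 were higher, with list means of 6.70 to 11.31 in LungMets and 5.40 to 7.56 in NMG, and all 9 proliferation genes were higher, with list means of 8.35 to 9.79 in LungMets and 6.96 to 8.98 in NMG. Their part in these values was not tested.

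Across the 4 tissues the mean was highest in PT for 20 of the 34 genes, in NL for 7, in NMG for 7 and in LungMets for 0, where all genes had 34.9%, 28.6%, 21.7% and 14.8% in the same order. The mean in LungMets lay between those of PT and NL for 26 of the 34 genes and for 64% of all genes. The lowest mean was in NL for 19 of the 34 and for 35.4% of all genes.

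The 2 growth sites were compared by their distance from their own normal tissue, as LungMets minus NL less PT minus NMG. This difference was called for 11 of the 34 genes, 7 higher and 4 lower, where 10.1% of all genes were higher and 9.68% lower. Stc2 differed most (3.54 ± 0.42; limma adjusted p = 1.08e-06), with a rise of 1.03 at the lung site and a fall of 2.51 at the mammary site. NMG read 7.54 to 9.79 for Stc2 and NL 4.74 to 5.17, while the means were 6.06 in LungMets and 6.42 in PT. Pfkfb3 (2.30), Egln3 (1.94), Hk2 (1.38), Ndrg1 (1.35), Pgam1 (0.85) and Ldha (0.60) were also higher at the lung site relative to normal tissue. Vegfa (-2.12), P4ha1 (-1.68), Ndufa4l2 (-0.98) and Egln1 (-0.50) were lower. Car9 (-0.83) and Epas1 (-0.05) were not called. The Ldha call was lost in 7 of 26 fits that left out 1 array, Vegfa in 2 and Egln1 in 1. The site difference was also called, upward, for 8 of 10 adipocyte markers (list median 3.40), 7 of 9 proliferation genes (1.68), 4 of 6 B lymphocyte markers (2.59) and 5 of 11 macrophage markers (1.11), and downward for 1 of 11 lung epithelium markers, and their part was not tested. NL and NMG had 1 label date each, so that a difference between dates cannot be told apart from one between normal tissues. LungMets and PT were taken on different days, which cannot be told apart from the sites.

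**Figure D3:**
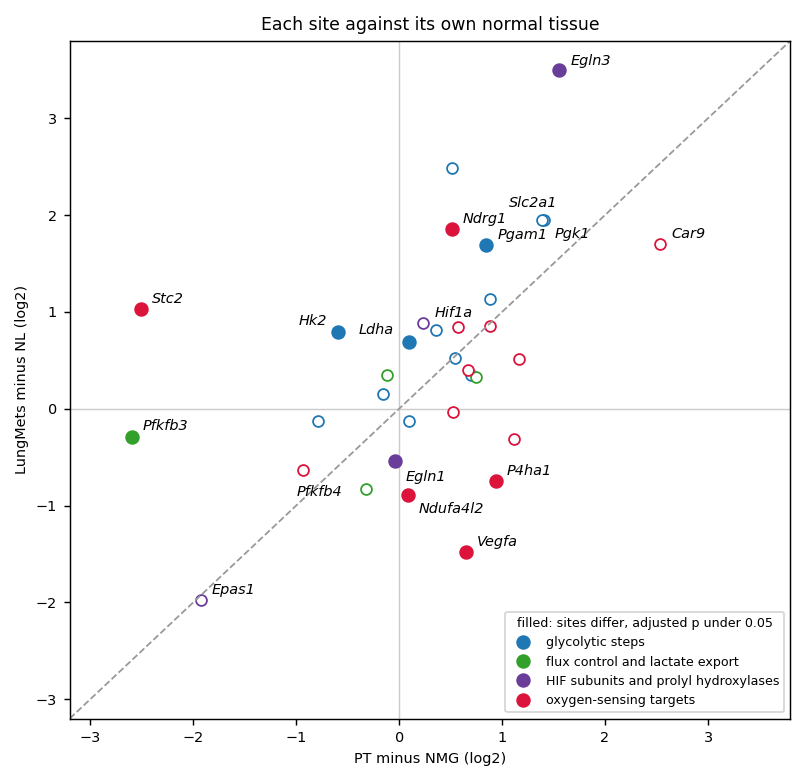
Log2 difference of LungMets minus NL (vertical) against that of PT minus NMG (horizontal) for 34 genes, a point for each gene, colored by role and filled where the difference between the sites was called. Points on the dashed line have equal differences at both sites, and Stc2 (1.03 and -2.51) and Vegfa (-1.48 and 0.65) lie on opposite sides of it.

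Among the 11 primary tumors the median SD was 0.37 for the 34 genes and 0.23 for all genes. All genes include those with low signals, which RMA compresses, so the medians are not on a par. PT replicate 5 is included. It was the lowest PT for most glycolytic genes, and no SD without it is given. Adm, the peptide adrenomedullin that widens vessels, varied most of the oxygen targets, and it read 8.88, 9.64 and 9.16 on PT replicates 7, 8 and 9, against 5.62 to 7.71 on the other 8. Vegfa read 8.94, 9.59 and 9.28 on the same 3 arrays, against 6.13 to 8.69 on the others. Replicate 6 was the lowest PT for both.

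The 3 highest PT were replicates 7, 8 and 9 for 9 of the 34 genes (Pfkp, Pgam1, Ldha, Hif1a, Vegfa, Adm, Bnip3, Higd1a and Ankrd37) and for 4.57% of all genes. The arrays were singled out after the values were seen, the labels put them in no group of their own, and no test was made. All 3 carry the second label date, with 4 other PT. Other markers differed on them too, and their part was not tested: the mean of 11 mammary epithelium markers was 6.74, 6.25 and 7.27 on replicates 7, 8 and 9, against 7.23 to 9.23 on the others, and that of 6 B lymphocyte markers was 7.13, 6.65 and 7.03, against 4.14 to 6.46. Aldoc went the other way, at 6.87, 6.70 and 8.04 on these arrays, against 7.75 to 10.85 on the others.

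Car9 did not follow this order. Its highest PT were replicates 10 (7.26), 6 (6.99) and 1 (6.95), and its lowest were replicates 11 (5.77) and 5 (5.81). Over the 11 PT none of the 33 relations of Car9 with another of the genes passed a permutation test after adjustment over the 33, and 2 had an unadjusted p under 0.05. The strongest was with Hk2 (r = 0.68, rho = 0.49; permutation adjusted p = 0.565 and 0.958), which dropped to r = 0.31 without replicates 11 and 5, the farthest from the median of Car9. Other relations grew without them, such as Hk1 (r from 0.24 to 0.79) and Pfkl (from 0.41 to 0.71), and these were not tested. Within the second label date alone, and without PT replicate 5, none passed either. The highest r without PT replicate 5 was with Epas1 (r = 0.71; permutation adjusted p = 0.691).

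**Figure D4:**
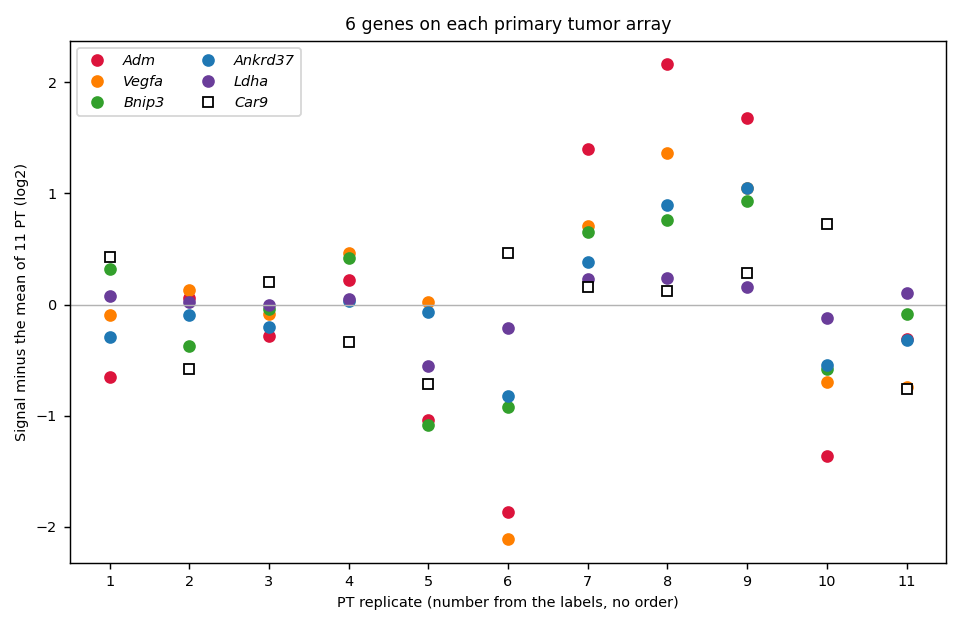
Signal minus the mean of the 11 PT (log2, vertical) for 6 genes on each PT array (horizontal, by replicate number), a point for each gene and array and an open square for Car9. Adm, Vegfa, Bnip3, Ankrd37 and Ldha are highest on replicates 7, 8 and 9, while the highest Car9 is on replicate 10 (7.26 before the mean was taken off).

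The JygMC(A) cells themselves were measured as 3D spheres and as a monolayer, with 1 array each, so the differences have no replicate check and no test. At 2-fold or more, 4 of the 34 genes were higher and 1 lower in spheres, where 2.91% of all genes were higher and 5.21% lower. Ndrg1 read 10.90 in spheres and 8.67 in the monolayer, which is 4.68-fold, and its 5 probe sets gave differences of 1.39 to 2.23. Hk2 read 9.13 in spheres and 7.68 in the monolayer (1.45), and Adm 7.93 in spheres and 6.68 in the monolayer (1.25). Slc2a1 read 10.31 in spheres and 9.23 in the monolayer (1.08). Pdk1 was lower, at 6.26 in spheres and 7.32 in the monolayer, and its 4 probe sets gave -1.49 to -0.12. With quantile normalization once more, Ankrd37 passed 2-fold and Pdk1 did not, which made 5 higher and 0 lower.

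The 13 oxygen targets had a median difference of 0.57, with 10 above 0, and the 13 glycolytic genes a median of -0.38, with 5 above 0, where all genes had a median of 0.03 and 9717 of 18193 lay above 0. Of the 4 genes past 2-fold upward, Hk2 and Slc2a1 are glycolytic, and no test was made between the groups of genes. Below Ndrg1 and Adm came Ddit4 (0.90), Ankrd37 (0.89), Kdm3a (0.75) and Car9 (0.61). On the lower side were Pgam1 (-0.73), Ldha (-0.66) and Pgk1 (-0.60) of glycolysis, and Egln1 (-0.77) and Pfkfb4 (-0.75). Pfkp (0.70), Aldoa (0.22) and Eno2 (0.19) of glycolysis were higher. The oxygen targets Higd1a (-0.56), Stc2 (-0.33) and P4ha1 (-0.30) were lower, Higd1a on 1 of its 3 probe sets. The mean of 9 proliferation genes was 7.08 in spheres and 10.27 in the monolayer, and its part in these values was not tested.

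**Figure D5:**
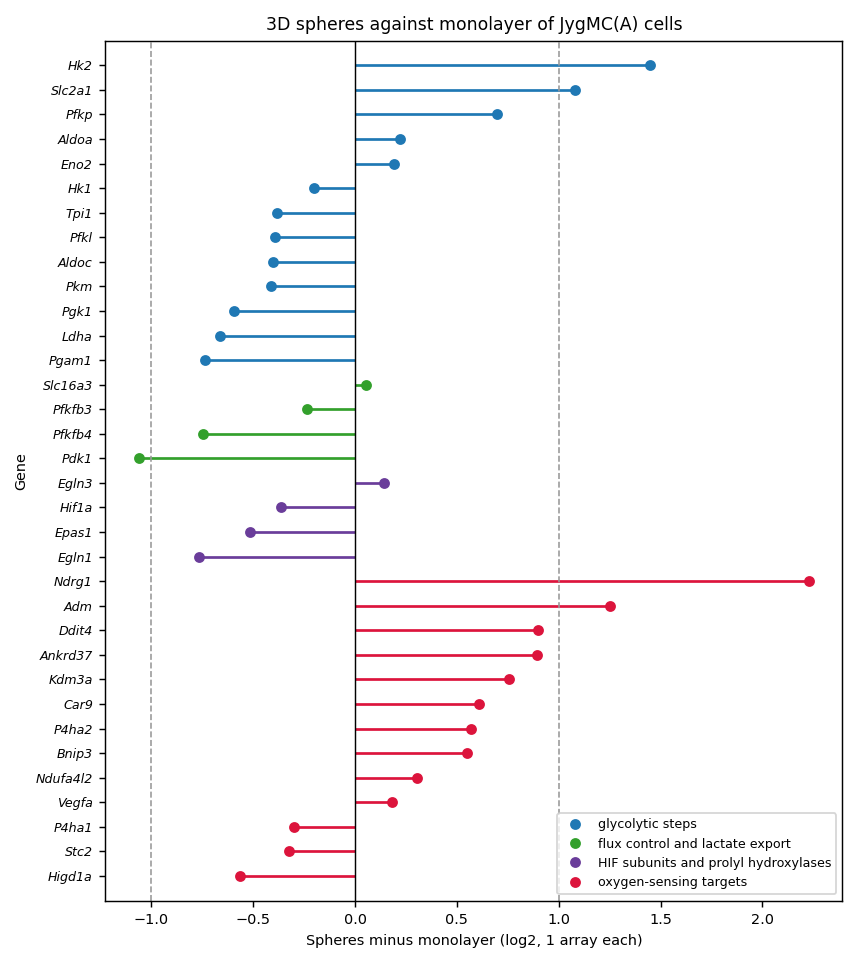
Log2 difference of spheres minus monolayer (horizontal, 1 array each) for 34 genes (vertical), colored by role and sorted within each role, with dashed lines at 2-fold. Ndrg1 stands farthest right at 2.23, and 10 of the 13 oxygen targets but 5 of the 13 glycolytic genes lie right of 0.

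The promoters of the oxygen targets that were highest in spheres are shown for the letters that HIF binds. RefSeq gives windows of 250 bases before to 50 bases after each start on GRCm38.p6, and 34 of the 37 genes had one, Epas1, Ndufa4l2 and Ndrg1 not among them. The letters ACGTG or GCGTG were searched on both strands, where they read CACGT or CACGC. The first of them is also part of the E-box, CACGTG. Matches are in capitals, and each gene is written along its own strand. Adm lies at chr7:110627407-110627706 on the plus strand, Ddit4 at chr10:59951721-59952020, Ankrd37 at chr8:45999801-46000100 and the 1 of 3 Kdm3a windows with a match at chr6:71632868-71633167, the last 3 on the minus strand.
Adm: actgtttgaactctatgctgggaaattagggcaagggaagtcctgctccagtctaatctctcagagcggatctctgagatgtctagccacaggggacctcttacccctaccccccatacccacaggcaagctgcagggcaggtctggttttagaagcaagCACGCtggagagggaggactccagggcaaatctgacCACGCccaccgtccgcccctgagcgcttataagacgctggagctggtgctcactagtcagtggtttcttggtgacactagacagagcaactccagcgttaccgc
Ddit4: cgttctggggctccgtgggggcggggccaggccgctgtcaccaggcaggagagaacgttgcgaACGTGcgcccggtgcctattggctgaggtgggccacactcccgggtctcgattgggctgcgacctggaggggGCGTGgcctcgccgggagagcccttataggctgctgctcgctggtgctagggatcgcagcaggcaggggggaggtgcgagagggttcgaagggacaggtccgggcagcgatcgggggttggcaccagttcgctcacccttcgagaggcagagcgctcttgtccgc
Ankrd37: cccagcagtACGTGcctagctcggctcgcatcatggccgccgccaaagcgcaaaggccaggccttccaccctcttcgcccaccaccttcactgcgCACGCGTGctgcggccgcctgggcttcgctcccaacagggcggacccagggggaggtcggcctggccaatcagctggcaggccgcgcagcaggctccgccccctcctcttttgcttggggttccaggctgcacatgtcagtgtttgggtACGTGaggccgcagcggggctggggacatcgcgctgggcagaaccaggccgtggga
Kdm3a: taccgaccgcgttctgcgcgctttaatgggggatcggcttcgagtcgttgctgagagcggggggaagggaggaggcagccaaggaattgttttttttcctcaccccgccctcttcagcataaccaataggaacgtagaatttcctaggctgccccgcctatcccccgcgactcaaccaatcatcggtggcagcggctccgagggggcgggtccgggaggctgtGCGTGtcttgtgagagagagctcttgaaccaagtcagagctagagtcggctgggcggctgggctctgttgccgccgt
Ankrd37, which encodes an ankyrin repeat protein, had 4 matches, of which the 2 in the middle overlap as CACGCGTG, and Adm and Ddit4 had 2 each. At least 1 match stood in 31 of the 34 genes with a window (91.2%) and in 46.7% of 27025 genes with windows of the same length, and ACGTG alone in 67.6% and 21.8%. All 11 oxygen targets with a window had a match, and 13 of 16 glycolytic genes. A gene counted if any of its windows had a match, so genes with more windows had more chances, and base composition was not taken into account. The genes were chosen as known for these pathways, so the shares are a description and no test. A match describes the letters and not binding in these cells.

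The tumors were set beside the cells they grew from, with a count of genes for which all 11 PT lay above or below the single array. Tissue RNA and cell RNA were extracted with different kits. All PT lay above the monolayer for 12 of the 34 genes and below it for 6, where the shares of all genes were 14.7% and 26.5%. The 6 below, Aldoa, Tpi1, Pgk1, Pgam1, Pkm and Ldha, are all glycolytic, with mean differences of -0.51 to -0.34. Pgk1 read 11.84 to 12.59 in PT and 12.67 in the monolayer. The gap was narrow for Aldoa (highest PT 11.52, monolayer 11.53) and Pkm (10.36 and 10.37). Above the monolayer were Epas1 (4.03), Aldoc (3.98), Car9 (2.06), Pfkfb3 (2.01) and Egln3 (1.98) by most, and the oxygen targets Ndrg1, Ddit4, Ankrd37 and Kdm3a. Pdk1 (1.26) and the glycolytic genes Slc2a1 (0.65) and Hk2 (0.41) were above it too. Against spheres all PT lay above for 7 genes and below for 5, where all genes had 18.3% and 31.0%. The 5 were Hk2, Aldoa, P4ha2, Ndufa4l2 and Ndrg1, while Tpi1, Pgk1, Pgam1, Pkm and Ldha overlapped with the spheres. Epas1 read 4.61 in spheres and 5.12 in the monolayer, and the 12 endothelium markers had means of 4.61 in spheres and 4.56 in the monolayer, against 5.04 to 8.14 in PT. The part of other cells in these tissue values was not tested.

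Other genes of both pathways were read from 2 wider lists. Of 30 further genes of glycolysis, gluconeogenesis and pyruvate use, 8 rose and 12 fell in PT against NMG, where 26.7% of all genes rose and 21.0% fell. The gluconeogenic enzymes Fbp2 (4.87) and Fbp1 (2.62) and Bpgm (1.49) rose most, and Pck1 (-5.31), Pdk4 (-3.94) and the insulin-dependent glucose transporter Slc2a4 (-2.97) fell most, the last 3 being known from fat as well as muscle or liver. In LungMets against PT 5 rose and 3 fell (9.03% and 6.13% of all genes), led by Ldhb (1.49), the other lactate dehydrogenase subunit, and Pck1 (-0.81). In LungMets against NL 5 rose and 14 fell (23.8% and 22.4% of all genes), led by Slc16a1 (1.06), a lactate carrier, and Pdk4 (-1.90).

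Of 34 further hypoxia genes, 16 rose and 10 fell in PT against NMG, beside the same shares of all genes (26.7% and 21.0%). Ak4 (3.86), an adenylate kinase of mitochondria, Tfrc (3.29), the transferrin receptor, and Car12 (2.99), a relative of Car9, rose most, while Gbe1 (-3.21), Angptl4 (-3.11) and Slc2a3 (-2.47) fell most. In LungMets against PT 3 rose and 6 fell (9.03% and 6.13% of all genes): Edn1 (1.43), Kdr (1.35) and Rora (0.79) led upward and Plod1 (-1.05), Ak4 (-0.86) and Cited2 (-0.57) downward. Edn1 and Kdr are genes of endothelium, whose markers also rose. In LungMets against NL 10 rose and 11 fell (23.8% and 22.4% of all genes), with Ak4 (3.36), Car12 (2.58) and Tfrc (2.23) highest and Kdr (-2.91), Flt1 (-1.92) and Rora (-1.91) lowest. In spheres Mxi1 (1.38) and Hmox1 (1.12) passed 2-fold upward and Lox (-4.66), Igfbp3 (-2.27) and Plod2 (-1.28) downward, with no test, where 2.91% of all genes were higher and 5.21% lower.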

How the data were processed

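The authors hybridized RNA to Affymetrix mouse arrays and deposited log2 values of probe sets, made with RMA (background correction, quantile normalization, summary of probes) in Partek 6.6. RMA compresses low signals, and levels of different probe sets cannot be compared.

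Of 45101 probe sets, 34958 listed 1 gene, 932 several and 9211 none. Without 13 control probe sets, 34945 stood for 18193 genes, each read from its brightest probe set over the 26 tissue arrays. The values were not normalized again, and no filter was used. Group means were fitted with limma 3.58.1 in R 4.3.3 over the tissue arrays, with Benjamini-Hochberg adjustment over all genes. It was tested on simulated data. Relations with Car9 used permutation tests in scipy 1.17.1 and numpy 2.4.6. The cell line arrays entered no fit. Genes were named by a rule: 7 in each comparison of a pair of tissues, and the largest called changes per role. The genes, lists and tests were chosen with earlier results of these data known. Alternatives were other probe set choices, scalings, blocks, weights, thresholds and left-out arrays. Plots were drawn with matplotlib 3.10.9.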

Additional observations from a re-analysis of the deposited data

Results flagged for a closer look

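The distance of LungMets from NL differed from that of PT from NMG, by a contrast in the same model (limma), for 11 genes. It was higher at the lung site for Stc2 (3.54 log2 units; limma adjusted p = 1.08e-06), Pfkfb3 (2.30; limma adjusted p = 0.00016), Egln3 (1.94; limma adjusted p = 0.0113), Hk2 (1.38; limma adjusted p = 0.000293), Ndrg1 (1.35; limma adjusted p = 0.00498), Pgam1 (0.85; limma adjusted p = 0.00297) and Ldha (0.60; limma adjusted p = 0.0385). It was lower at the lung site for Vegfa (-2.12; limma adjusted p = 0.0211), P4ha1 (-1.68; limma adjusted p = 0.00651), Ndufa4l2 (-0.98; limma adjusted p = 0.000305) and Egln1 (-0.50; limma adjusted p = 0.0109). NL and NMG carry different label dates, which cannot be told apart from the tissues, nor can the days of LungMets and PT from the sites.

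Higd1a read 10.60 on LungMets replicate 9, far from the next LungMets at 10.17. This was the only gap past Dixon's limit among 34 genes looked at in LungMets, where chance alone would pass about 1 in 20, and PT and the groups of 3 were not looked at. The same array stood apart in its lung markers.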

How the results depend on the processing

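Over 79 results for single genes and 2180 values under other settings, none changed direction while called, 2034 kept their side of the threshold, 122 lost it, 19 gained it and 5 fell under 2-fold. Counts of called genes stayed within 1.5 times except as follows. With array weights the site difference was called for 17 genes. With a 2-fold threshold added, 9 were called in PT against NMG, 1 in LungMets against PT, 11 in LungMets against NL, 6 in LungMets against NMG and 7 for the site difference. The second label date alone gave 0 in LungMets against PT, and 11 without LungMets replicate 9 and PT replicate 5, a setting chosen after seeing the data. At 1.5-fold 15 genes differed between spheres and monolayer.

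Leaving out 1 array gave 17 to 21 calls in PT against NMG, 15 to 20 in LungMets against PT, 20 to 24 in LungMets against NL, 11 to 18 in LungMets against NMG and 9 to 13 for the site difference. Without PT replicate 5, 0 of the relations with Car9 passed. The labels do not tie same-numbered samples to a mouse, so the numbers were not taken as pairs. Deviations of 7 of 9 same-numbered PT and LungMets correlated over 0.1 (-0.23 to 0.48). The range was -0.09 to -0.04 for LungMets and NL, -0.05 to 0.06 for PT and NMG, and -0.31 to 0.05 for LungMets and NMG. Same-numbered PT and LungMets also carry the same label date, while NL and NMG each have a date of their own. A shared mouse and a shared date cannot be told apart here, and neither was tested. A replicate block gave 22, 17, 24, 17 and 16 calls in the same order of comparisons, without Tpi1 in PT against NMG, Pfkfb3 and Egln1 in LungMets against PT, and Pgam1, Pfkfb4 and P4ha2 in LungMets against NMG. Centring each array on its median moved the median of all genes to 0.25 in PT against NMG, where 17 genes then rose and 5 fell, and to -0.13 in LungMets against PT, where 3 rose and 18 fell. The number of normal samples, 3 per tissue, and low signals such as Car9 in NL and NMG limit the precision.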
